A study of Mus musculus with 12 samples.

Results

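The genes described here are 9 WNT antagonists, Wif1, Sfrp1, Sfrp2, Frzb, Dkk1, Dkk2, Dkk3, Notum and Apcdd1, measured in mouse hair follicle stem cells that kept or had lost the forkhead transcription factor Foxc1. They were chosen by name, with earlier results of these data known. All 9 were found among the 23735 gene models of each deposited table, each on 1 row.

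WNT ligands are lipid-modified proteins that bind Frizzled receptors and the co-receptors Lrp5 and Lrp6, which stabilises beta-catenin and switches on target genes through TCF/LEF factors. Secreted antagonists act outside the cell: Wif1 and the Frizzled-related proteins Sfrp1, Sfrp2 and Frzb bind WNT ligands, Dkk1 and Dkk2 bind Lrp5 and Lrp6, and Notum removes the lipid from the ligand. Apcdd1 is held in the membrane and is counted with them as an inhibitor at the cell surface, and Dkk3 is a divergent Dickkopf protein whose action on the WNT co-receptors is less clear. In the hair follicle, WNT signalling starts the growth phase (anagen), and stem cells of the bulge are known for making WNT inhibitors during rest (telogen).

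RNA came from 12 libraries in 7 groups. Anagen cells were from males at postnatal day 30 on a mixed Black Swiss and C57BL/6 background. Their controls (Het, 2 libraries) are labelled FOXC1-Sox9CreER-heterozygous, and the inducible knockouts (iKO, 2 libraries) lost Foxc1 through the same Sox9CreER driver. Mice with Sox9CreER received tamoxifen, which lets this Cre enter the nucleus, and the same step turned on a YFP reporter. Second telogen cells were from Black Swiss mice labelled wild type (WT, 2 libraries) and from conditional knockouts by K14Cre (cKO, 2 libraries), a Cre under the keratin 14 promoter of basal epithelial cells. Both groups paired 1 male of day 42 with 1 female of day 46. Second telogen iKO cells (2 libraries) were from males of the mixed background at day 60, and no control of their own driver was used here. Further stages came from Shh-Het females of the Agouti strain, whose titles say WT: first telogen near day 23 and early growth (anagen II) near day 26, with 1 library each.

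Every level and fold below is from the authors' deposited tables, which give FPKM (fragments scaled to transcript length and to library size). Each group has a single pooled FPKM, so library-to-library spread cannot be shown and depth is unknown. A gene was called where the deposited q, a p-value adjusted for multiple testing, was below 0.05; rose, fell, higher and lower are used of called genes unless a sentence says otherwise. Errors of log2 folds (SE) were rebuilt from the deposited test statistics and are approximate. Each library came from its own mouse. Foxc1 was 17.0-fold lower in anagen iKO than in Het cells, 16.6-fold lower in cKO and 8.66-fold lower in second telogen iKO than in WT cells, each a call. Of the bulge markers that define these cells, Cd34 ranged from 129 to 883, Sox9 from 59.5 to 132 and Lhx2 from 149 to 257 FPKM over the 7 groups. Krt15 had 9222 FPKM in first telogen and is listed at 0 in 3 groups, where the tables give it the status HIDATA, so that these are failed estimates. The Shh-Het libraries stood apart in dermal fibroblast markers: the sum over the 9 listed genes was 2264 in first telogen and 1147 in anagen II, against 120 to 240 FPKM in the 5 other groups. Pdgfra, which defines fibroblasts, had 174 and 50.3 FPKM in these libraries and at most 0.356 elsewhere. In such bulk samples, fewer cells of a type and less RNA per cell cannot be told apart.

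Sfrp1 and Dkk3 were the abundant members, Wif1 joined them in cKO cells, and the 5 low members were below 1 FPKM in every group of 2 libraries. In the joint table of all 7 groups, Sfrp1 ranged from 45.2 to 527, Dkk3 from 62.0 to 318, Wif1 from 4.22 to 170 and Apcdd1 from 7.18 to 19.8 FPKM. Notum lay between 0.322 and 1.30, Dkk2 between 0.0844 and 2.09, Sfrp2 between 0.0887 and 4.40, Dkk1 between 0.0423 and 1.54, and Frzb between 0 and 0.489 FPKM. In each of the 5 groups with 2 libraries, 4 members reached 1 FPKM: Sfrp1, Dkk3, Wif1 and Apcdd1.

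**Figure D1:**
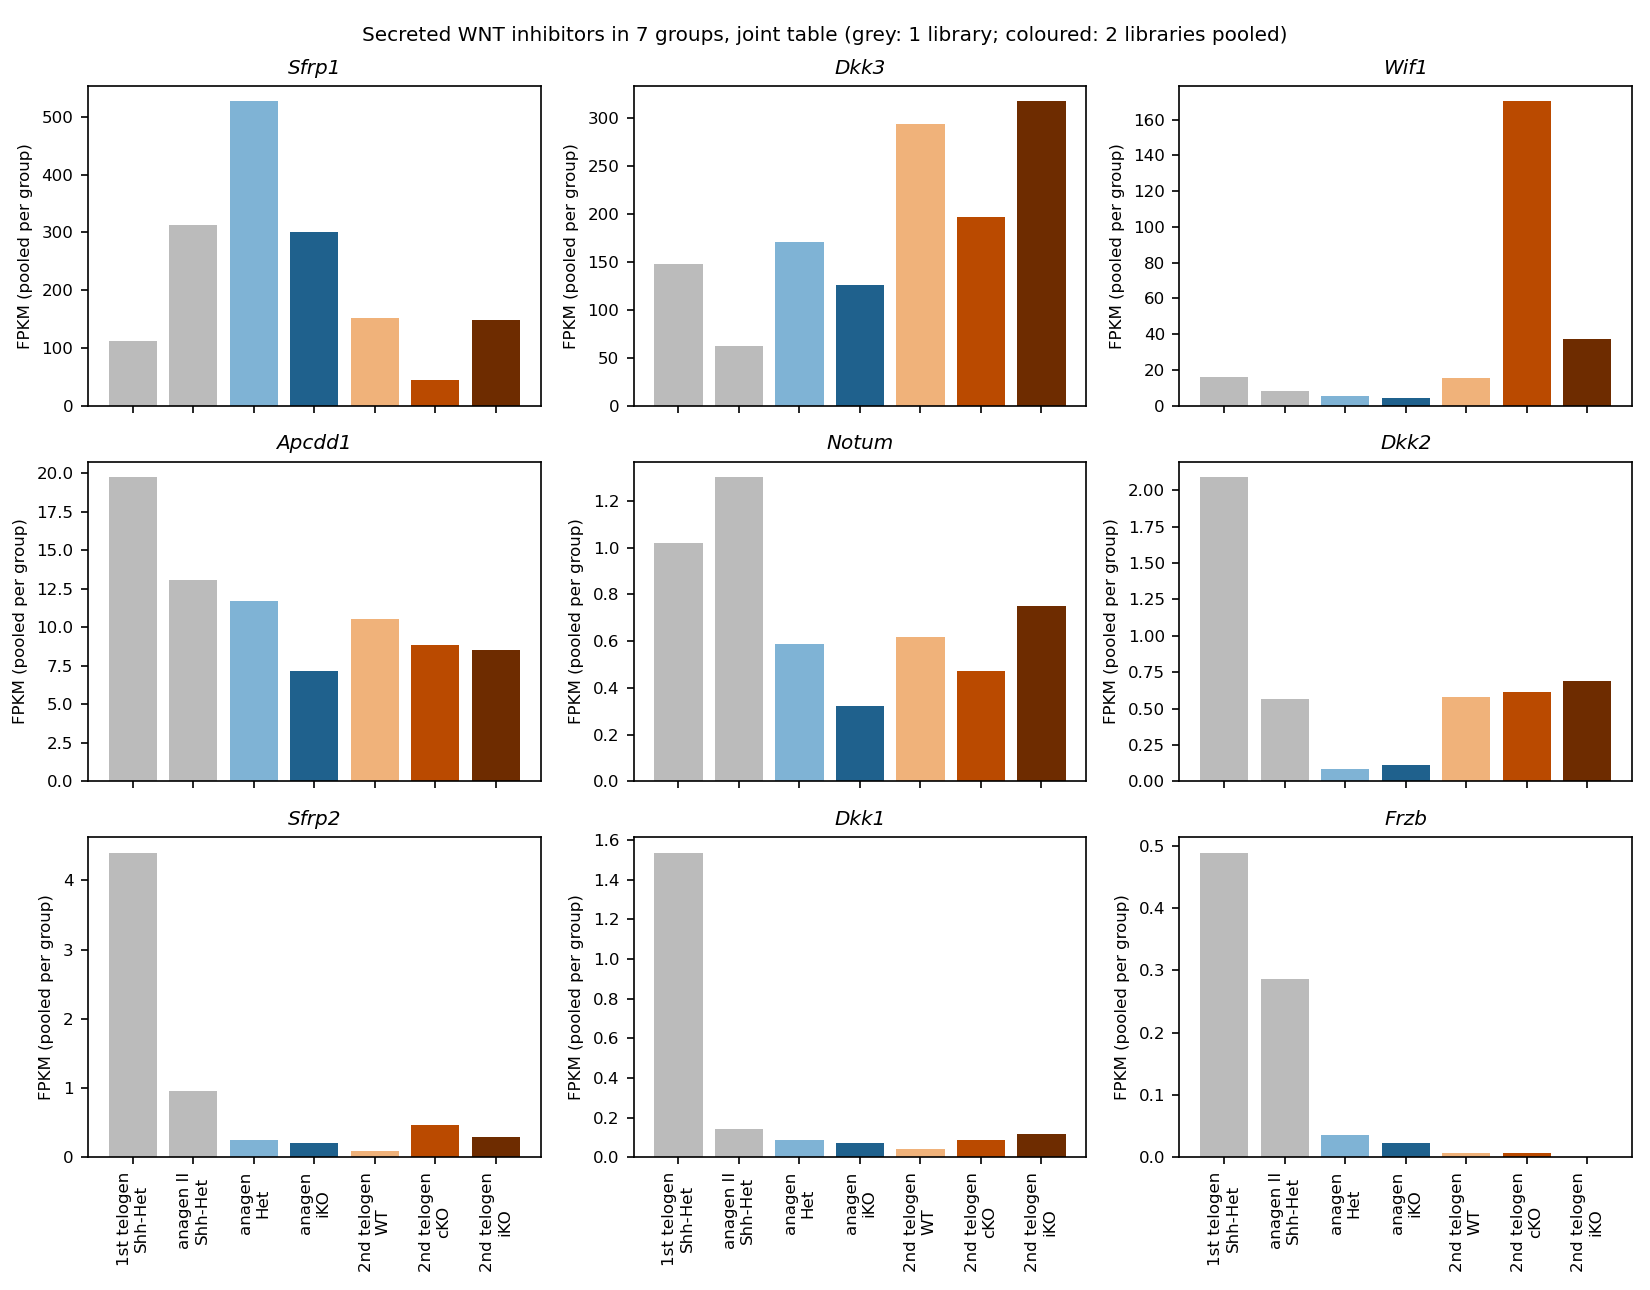
Pooled FPKM (vertical axes, each from 0) of the 9 members in the 7 groups of the joint table; grey bars are groups of 1 library and coloured bars groups of 2. Sfrp1 is tallest in anagen Het (527), Dkk3 in second telogen iKO (318) and Wif1 in cKO cells (170), while Sfrp2, Dkk1, Dkk2 and Frzb are tallest in the first telogen library.

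The make-up of the antagonist RNA was Sfrp1-led in anagen and Dkk3-led in second telogen. The 9 members summed to 716 FPKM in anagen Het, 439 in anagen iKO, 472 in second telogen WT, 423 in cKO and 514 in second telogen iKO cells. Sfrp1 made up 73.6% of that sum in anagen Het and 68.6% in anagen iKO cells, but 32.0% in second telogen WT and 28.9% in second telogen iKO cells. Dkk3 was the larger part in those telogen groups, at 62.3% and 61.8%. In cKO cells Wif1 held 40.3% of the sum and Sfrp1 10.7%. These shares are descriptions of pooled values and carry no test.

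**Figure D2:**
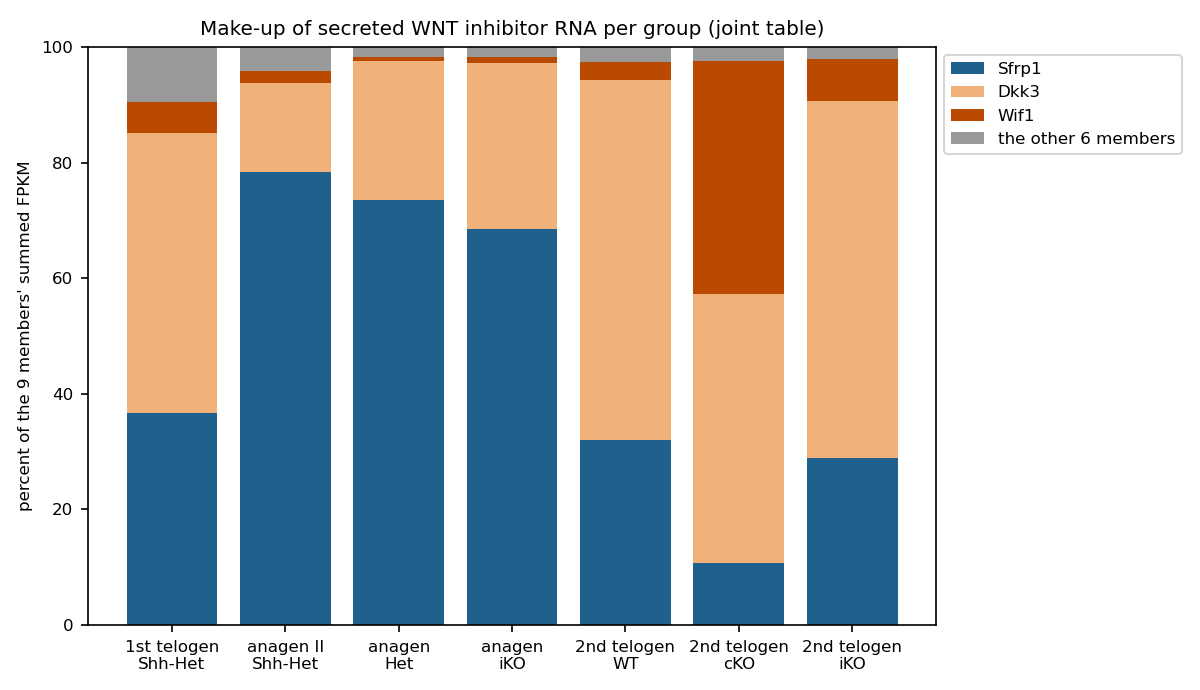
Share of the 9 members' summed FPKM (vertical axis, percent) taken by Sfrp1, Dkk3, Wif1 and the 6 others in each group of the joint table. Sfrp1 takes 73.6% in anagen Het and 32.0% in second telogen WT cells, and the Wif1 share is 3.24% in WT and 40.3% in cKO cells.

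Wif1, which binds WNT ligands through its WIF domain, had the largest called fold of any member between groups of 2 libraries, 40.3-fold between anagen iKO and cKO cells. Its model (XLOC_001786) spans 120471059 to 120537698 of chromosome 10 (mm9). In the joint table it had 4.22 FPKM in anagen iKO, 5.19 in anagen Het, 15.3 in second telogen WT, 37.2 in second telogen iKO and 170 in cKO cells. The anagen groups were thus low, and every telogen group lay above them. Of the 10 pairs among these 5 groups, 9 were called, and only anagen Het and iKO did not differ beyond their error (log2 0.30, SE 0.34, q = 0.461). The Shh-Het libraries had 16.1 in first telogen and 8.20 FPKM in anagen II, so there too the resting library had the larger value, without a test.

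RefSeq (GRCm38.p6) held an entry for 5 of the 9 members in its promoter table. The 250 bases before the start are shown for Wif1, the member with the largest called fold, and for Dkk1, whose window held the most TCF/LEF letters. Windows were searched on both strands for CTTTGA and CTTTGT, the core letters of TCF/LEF sites, and for GTAAACA and GTAAATA, letters of forkhead sites such as those Foxc1 binds; no match overlapped another. Capitals mark matches, in either orientation.
Wif1, chr10:121033754-121034003, plus strand: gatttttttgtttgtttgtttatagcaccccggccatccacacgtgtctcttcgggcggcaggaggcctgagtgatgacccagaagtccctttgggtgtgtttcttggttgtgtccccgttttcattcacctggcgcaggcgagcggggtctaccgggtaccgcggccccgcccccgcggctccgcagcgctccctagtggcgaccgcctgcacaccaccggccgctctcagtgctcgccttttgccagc
Dkk1, chr19:30549497-30549746, minus strand: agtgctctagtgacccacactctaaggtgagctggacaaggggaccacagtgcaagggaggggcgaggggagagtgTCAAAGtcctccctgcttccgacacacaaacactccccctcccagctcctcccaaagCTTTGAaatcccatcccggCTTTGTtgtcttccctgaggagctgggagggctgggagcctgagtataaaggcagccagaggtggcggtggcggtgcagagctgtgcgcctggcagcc
The Dkk1 window held CTTTGA 2 times, in the reverse orientation from 174 to 169 and forward from 117 to 112 bases before the start, and CTTTGT 1 time from 98 to 93. Dkk2 held 1 CTTTGT and Frzb 1 CTTTGA, and the windows of Wif1 and Sfrp2 held neither. None of the 5 windows held GTAAACA or GTAAATA. Other forms of forkhead sites were not searched, so their absence is not shown. Among all 32851 windows of this length, 27.6% held CTTTGA or CTTTGT and 5.76% held GTAAACA or GTAAATA. These matches are descriptions of letters.

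Sfrp1, a secreted protein with a Frizzled-like domain that binds WNT ligands, ran the other way over the cycle. It lies on chromosome 8 from 24521973 to 24560104 (XLOC_020252, mm9). In the joint table it had 527 FPKM in anagen Het, 301 in anagen iKO, 151 in second telogen WT, 149 in second telogen iKO and 45.2 in cKO cells. The 2 anagen groups were above the 3 telogen groups. Of the 10 pairs, 9 were called, and the exception was WT against iKO in second telogen (log2 0.02, SE 0.32, q = 0.964). In the Shh-Het libraries Sfrp1 had 112 FPKM in first telogen and 313 in anagen II, 2.80-fold more in the growing library, without a test. In anagen Het cells it ranked number 168 from the top of the 23735 models, and in cKO cells number 2003.

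Among the 5 groups of 2 libraries, Dkk3 had its smallest values in anagen and its largest in second telogen WT and iKO cells. It lies on chromosome 7 from 119259532 to 119302571 (XLOC_019893, mm9). Its FPKM was 126 in anagen iKO, 171 in anagen Het, 197 in cKO, 294 in second telogen WT and 318 in second telogen iKO cells. No neighbouring pair in this order was called by Cuffdiff, the smallest q being 0.0662 for WT against cKO (log2 0.58, SE 0.33), the 1 such pair with an unadjusted p under 0.05, whereas 6 of all 10 pairs were called. The Shh-Het libraries had 148 FPKM in first telogen, below the anagen Het value, and 62.0 in anagen II.

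Apcdd1, a membrane glycoprotein that restrains WNT signalling at the receptor, spanned a narrow range in the groups of 2 libraries. It lies on chromosome 18 from 63081980 to 63112849 (XLOC_009729, mm9). Its FPKM was 7.18 in anagen iKO, 8.53 in second telogen iKO, 8.84 in cKO, 10.5 in second telogen WT and 11.7 in anagen Het cells, and 13.1 in anagen II and 19.8 in first telogen of the Shh-Het libraries. The 3 knockout groups thus had the smallest values, but 1 of the 10 pairs was called, which was anagen Het against iKO. Notum, the WNT deacylase (chromosome 11 from 120515102 to 120522151), had 0.322 to 0.752 FPKM in these 5 groups, and none of its 10 pairs was called by Cuffdiff (smallest q = 0.0748, for the iKO groups, the 1 pair with an unadjusted p under 0.05).

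Dkk2, an antagonist that acts on Lrp5 and Lrp6, was low and, among the groups of 2 libraries, lower in anagen than in second telogen. It lies on chromosome 3 from 131748255 to 131843268 (XLOC_013319, mm9). It had 0.0844 in anagen Het and 0.113 in anagen iKO, against 0.579 in second telogen WT, 0.617 in cKO and 0.689 FPKM in second telogen iKO cells. The Shh-Het libraries did not follow this: anagen II had 0.563 FPKM, near second telogen WT, and first telogen 2.09. All 6 pairs of an anagen with a telogen group of 2 libraries were called. The 3 telogen pairs were not, and the anagen pair was not tested. Every level in the groups of 2 libraries was below 1 FPKM, and the reads behind them are not known.

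Sfrp2, Dkk1 and Frzb were at the bottom of the range in all 5 groups of 2 libraries. Sfrp2, a ligand-binding relative of Sfrp1 on chromosome 3 from 83570242 to 83578236, had 0.0887 in WT, 0.206 in anagen iKO, 0.252 in anagen Het, 0.293 in second telogen iKO and 0.462 FPKM in cKO cells. Dkk1, the founding Dickkopf antagonist on chromosome 19 from 30620373 to 30623986, had 0.0423 to 0.117 FPKM, and Frzb on chromosome 2 from 80252126 to 80287553 had at most 0.0352 and is listed at 0 in second telogen iKO cells. No pair was tested by the authors for Dkk1 or Frzb, and 4 of 10 were tested for Sfrp2. The first telogen library held the highest values, with 4.40 FPKM of Sfrp2, 2.09 of Dkk2, 1.54 of Dkk1 and 0.489 of Frzb. In anagen II these were 0.949, 0.563, 0.142 and 0.286. Of the 9 fibroblast markers 7 were also highest in first telogen: Dcn had 235 FPKM in first telogen, 66.4 in anagen II, 18.2 in anagen Het and 0.305 in second telogen WT cells, and Lum had 48.3, 13.0, 2.31 and 0.0260. The other 2 were not: Col6a1 had 119, 51.4, 129 and 210 FPKM in these groups, and Thy1 35.5, 67.6, 7.08 and 3.92. Endothelial and immune markers summed to 48.3 and 215 FPKM in first telogen, against at most 7.72 and 98.3 in any other group. The dermal papilla list, of which 7 of 7 genes were found, summed to 44.7 in first telogen, 18.7 in anagen II and 3.52 to 15.2 FPKM elsewhere, with Corin below 1 FPKM in all 7 groups. The part of these cells in the values of the 4 genes was not tested.

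**Figure D3:**
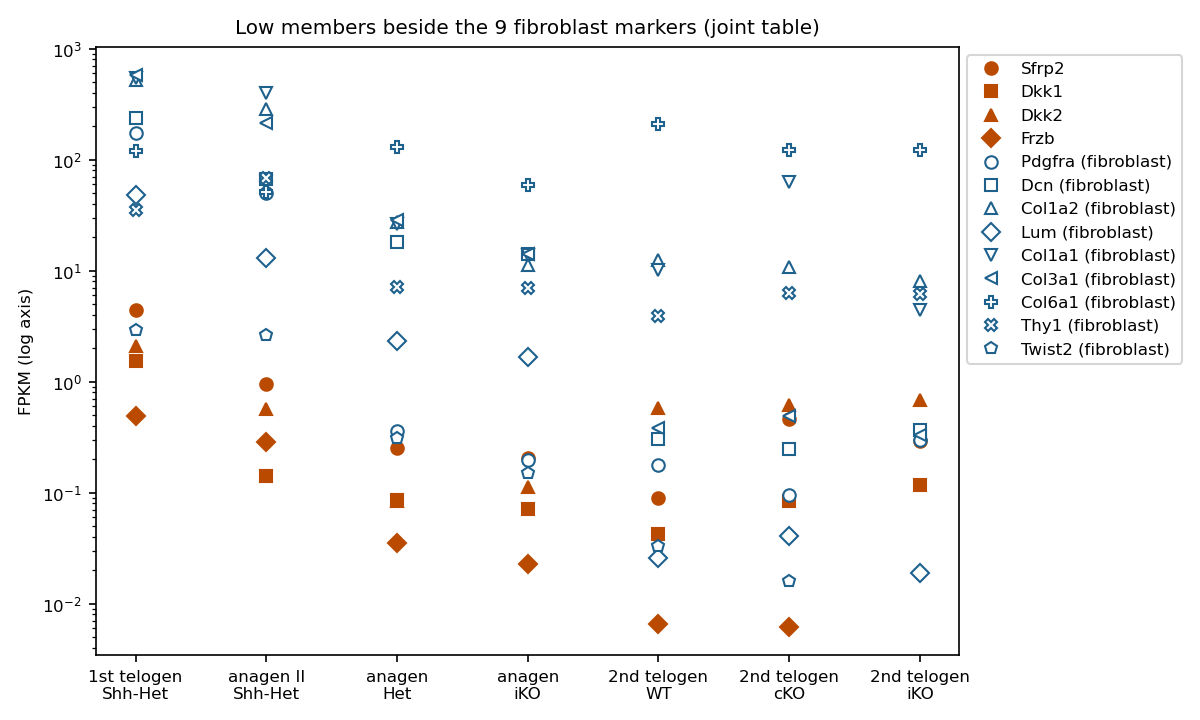
FPKM on a log axis of Sfrp2, Dkk1, Dkk2 and Frzb (filled) and of the 9 listed fibroblast markers (open) in the 7 groups of the joint table; Frzb and Twist2 are listed at 0 in second telogen iKO cells and have no point there. The 4 members and 7 of the 9 markers have their highest value in the first telogen library, Thy1 in anagen II and Col6a1 in second telogen WT cells.

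The comparison of anagen iKO with Het cells asked how the inhibitors stand in growing-phase cells without Foxc1. Sfrp1 and Apcdd1 fell, and none rose. In the anagen table, Sfrp1 went from 559 to 319 FPKM, 1.75-fold lower (log2 -0.81, SE 0.31, q = 0.0143), and Apcdd1 from 12.4 to 7.61, 1.63-fold lower (log2 -0.71, SE 0.26, q = 0.00434). Dkk3 had 181 in Het and 133 in iKO cells (log2 -0.45, SE 0.26, q = 0.137), Wif1 5.50 and 4.47 (log2 -0.30, SE 0.31, q = 0.574) and Notum 0.622 and 0.341 (log2 -0.87, SE 0.62, q = 0.326), and these 3 were not called. All 5 tested members had the smaller value in iKO cells; the other 4 were not tested by the authors, being too low. Over all 13716 models tested, 5.18% were called higher and 5.08% lower. The median of log2 (FPKM + 1) ratios was -0.25 over the 9 members, including the 4 not tested, and -0.02 over all models tested. The members' median depends on the added constant: it was -0.29 with 0.1 and -0.07 with 5 in place of 1. Of the 11 bulge markers 3 fell too: Fgf18, Cd34 and Nfatc1. Markers of other cells fell beside them: 4 of 9 fibroblast genes (sum 254 FPKM in Het and 128 in iKO cells) and 8 of 13 hair matrix, shaft and root sheath genes (sum 311 and 240). Endothelial markers fell in 2 of 5 genes, melanocyte markers in 1 of 6 and Schwann markers in 1 of 4. Others rose: Krt1 of the suprabasal list (1.57-fold), Cd74 of the immune list (2.47-fold) and Acta2 of the muscle list (1.65-fold). The part of these markers in the members' values was not tested. Neither call reached 2-fold, and that of Sfrp1 ends at q below 0.01.

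The comparison of cKO with WT cells asked the same in second telogen. Wif1 rose and Sfrp1 fell. In the telogen table Wif1 went from 14.7 to 163 FPKM, 11.1-fold (log2 3.47, SE 0.33, q = 0.00159), and Sfrp1 from 145 to 43.5, 3.34-fold lower (log2 -1.74, SE 0.37, q = 0.00159). The RNAs of these 2 ligand-binding inhibitors thus changed in opposite directions between the same groups. Dkk3 had 283 in WT and 189 in cKO cells (log2 -0.58, SE 0.43, q = 0.419) and Apcdd1 10.1 and 8.49 (log2 -0.26, SE 0.33, q = 0.825). Notum had 0.594 and 0.454, Dkk2 0.560 and 0.590, and Sfrp2 0.0852 and 0.443 FPKM (log2 2.38, SE 1.02, q = 0.205), none of them called, and Dkk1 and Frzb were not tested. Of 13551 models, 3.75% were called higher and 2.87% lower. In the joint table Sfrp2 passed as well (q = 0.0373), at 0.0887 in WT and 0.462 FPKM in cKO cells, both below 1 FPKM. There the q is adjusted over all comparisons together. The deposited Cuffdiff p was smaller there too, 0.0087 against 0.02215 in the telogen table. The fibroblast list summed to 228 FPKM in WT and 196 in cKO cells, with 1 call of 9 (Col1a1, higher), and the defining markers Pdgfra, Lum and Dcn were each below 1 FPKM in both groups. Of the 9 bulge markers tested 1 fell, Fgf18, by 2.54-fold (43.9 to 17.2 FPKM). The list of infundibulum and sebaceous genes summed to 133 in WT and 292 in cKO cells, with 2 of 6 higher and 2 lower. The part of these lists in the members' values was not tested.

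**Figure D4:**
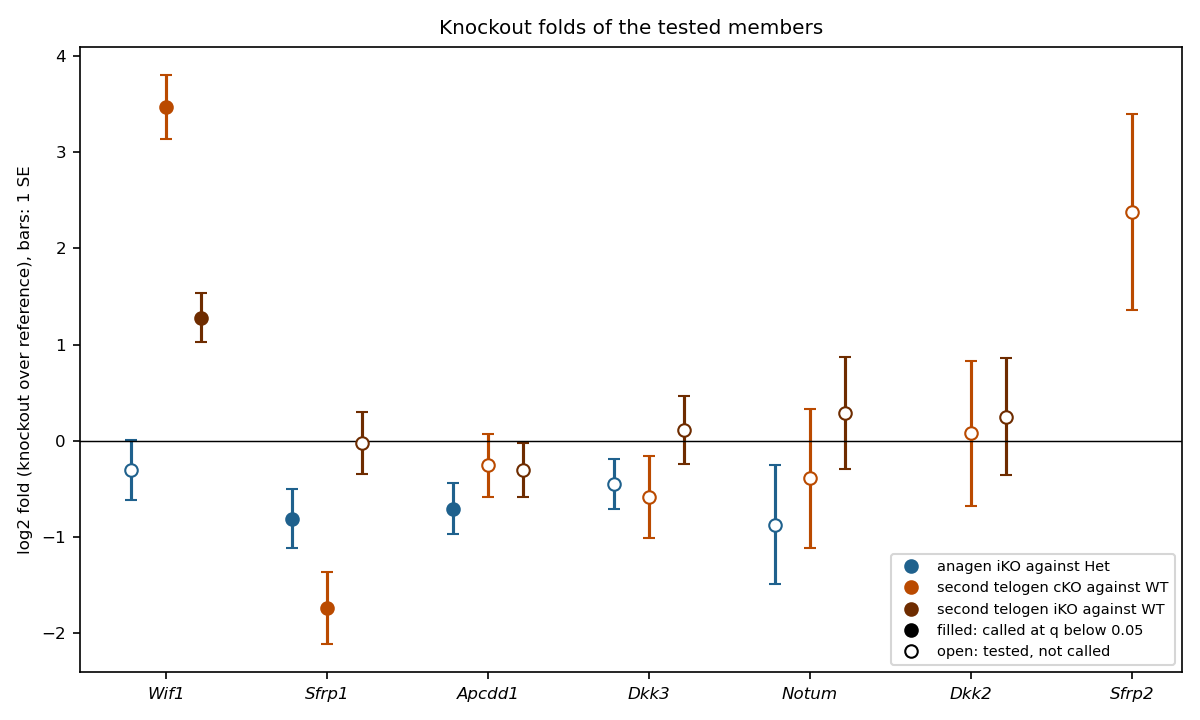
Log2 fold (vertical axis, bars of 1 SE) of each tested member in anagen iKO against Het and second telogen cKO against WT (2-group tables) and in second telogen iKO against WT (joint table); filled points were called. Wif1 reaches 3.47 in cKO cells and 1.28 in second telogen iKO cells, and Sfrp1 lies at -1.74 in cKO and -0.02 in second telogen iKO cells.

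The difference between the knockout effects was tested for the 5 members tested in both of these tables. Wif1 differed: its log2 fold was -0.30 in anagen and 3.47 in telogen, a difference of 3.77 (SE 0.45, adjusted p = 1.93e-13 from a z computed here on the authors' deposited folds and statistics). This p is a normal approximation that rests on 2 libraries per group, with Benjamini-Hochberg adjustment over all models; over the alternatives it ranged from 7.73e-15 to 0.0160. Of 12939 models, 0.386% had a higher and 0.271% a lower effect in telogen. Sfrp1 had a difference of -0.93 (SE 0.48, adjusted p = 1.00 by the same z on the authors' values), so a larger fall in telogen was not shown. The differences of Dkk3 (-0.14, SE 0.50), Apcdd1 (0.45, SE 0.42) and Notum (0.48, SE 0.95) did not pass the test. The tables also differ in driver, control, strain, ages and sexes, which cannot be told apart from stage.

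**Figure D5:**
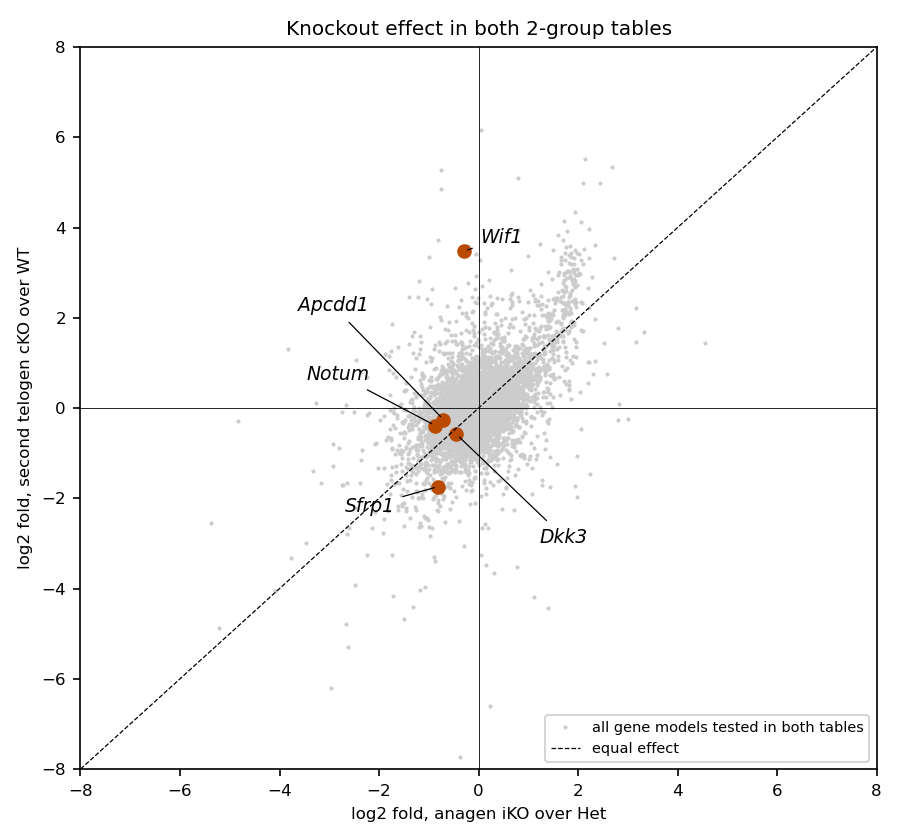
Log2 fold in anagen iKO over Het (horizontal) against log2 fold in second telogen cKO over WT (vertical) for the 12939 models compared (grey) and the 5 members among them (coloured); the dashed line marks equal effects. Wif1 lies far above the line, at -0.30 and 3.47, and Sfrp1, Dkk3, Apcdd1 and Notum lie below 0 on both axes.

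Second telogen iKO cells were set against WT cells in the joint table, and share the WT libraries with the cKO comparison. Wif1 rose from 15.3 to 37.2 FPKM, 2.43-fold (log2 1.28, SE 0.26, q = 0.000444), and no member was called lower by Cuffdiff, nor had an unadjusted p under 0.05 in that direction. Sfrp1 had 151 and 149 FPKM (log2 -0.02, SE 0.32), and Dkk3 294 and 318 (log2 0.11, SE 0.35). Of 13714 models, 7.01% were called higher and 5.88% lower. Of the 9 bulge markers tested 1 was lower, Fgf18, by 5.99-fold (45.6 to 7.61 FPKM). Infundibulum and sebaceous markers were higher in 3 of 6 genes and lower in 1 (sum 139 in WT and 389 FPKM in iKO cells). Fibroblast markers were lower in 3 of 9 (237 and 142). The part of these lists in the members' values was not tested. Driver, strain, age and sex differ between these groups and cannot be told apart from the loss of Foxc1.

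Set directly against cKO cells, second telogen iKO cells had less Wif1 and more Sfrp1 and Dkk3. Wif1 was 4.58-fold lower in iKO cells (log2 -2.19, SE 0.26, q = 0.000444) and Sfrp1 3.29-fold higher (log2 1.72, SE 0.30, q = 0.000444). Dkk3 was 1.61-fold higher (log2 0.69, SE 0.34, q = 0.0288), a call that ends when the p-values are adjusted over this comparison alone. Of 13711 models, 7.53% were called higher and 7.35% lower. Foxc1 itself had 1.66 in cKO and 3.17 FPKM in iKO cells. These groups also differ in driver, strain, ages and sexes, which cannot be told apart. Infundibulum and sebaceous markers were higher in 4 of 6 genes (sum 304 in cKO and 389 FPKM in iKO cells) and immune markers in 4 of 5 (79.4 and 98.3), and their part was not tested.

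Between the iKO groups, which share driver, strain and sex but not stage and age, 4 members differed. Foxc1 itself had 1.32 FPKM in anagen and 3.17 in second telogen iKO cells, 2.40-fold higher (q = 0.00156). Wif1 was 8.81-fold (log2 3.14, SE 0.30), Dkk2 6.12-fold (log2 2.61, SE 0.73) and Dkk3 2.53-fold (log2 1.34, SE 0.33) higher in second telogen than in anagen, and Sfrp1 was 2.02-fold lower (log2 -1.02, SE 0.35). Fibroblast markers were lower in 3 of 9 genes, Col3a1 by 42.8-fold and Dcn by 38.6-fold, and higher in 1 (Col6a1, 2.09-fold), endothelial markers lower in 3 of 5 (Tek 13.1-fold) and muscle markers in 1 of 3 (Acta2, 53.0-fold). Suprabasal epidermis markers were higher in 4 of 4 genes (sum 420 in anagen and 2128 FPKM in telogen), immune markers in 5 of 5 (20.6 and 98.3), and hair matrix, shaft and root sheath markers lower in 9 of 13; their part was not tested. Calls were common here, with 17.6% of 13787 models higher and 15.5% lower. The controls differed in the same 4 members. In anagen Het against second telogen WT cells, Sfrp1 was 3.49-fold higher (log2 1.80, SE 0.39), while Wif1 was 2.95-fold (log2 -1.56, SE 0.30), Dkk2 6.86-fold (log2 -2.78, SE 0.80) and Dkk3 1.72-fold lower (log2 -0.78, SE 0.33). Of 13932 models, 11.9% were called higher and 13.5% lower in anagen. These 2 stage comparisons share no library; genotype, strain, sex and age also differ between the controls. With a 1 FPKM minimum Dkk2 is not tested in either, which leaves 2 members in place of 3 higher in telogen, and the Dkk3 difference in the controls is under 2-fold. Fibroblast markers were higher in anagen Het than in WT cells in 5 of 9 genes, Col3a1 by 75.0-fold and Dcn by 59.5-fold, and lower in 1 (Col6a1, 1.62-fold), endothelial markers higher in 4 of 5 and muscle markers in 1 of 3 (Acta2, 24.7-fold). Hair matrix, shaft and root sheath markers were higher in 10 of 13 genes (sum 294 against 55.9 FPKM), and suprabasal epidermis markers lower in 4 of 4 (294 against 1899); their part was not tested.

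The rest of the pathway was followed in 80 further WNT genes, which were also listed with earlier results of these data known. The shares over all models are thus given beside their counts as a description. In anagen iKO cells 11 of the 63 tested fell and 2 rose, against 5.08% lower and 5.18% higher over all models. Among receptors, the Frizzled genes Fzd9 and Fzd3 were 37.2- and 1.49-fold lower, the R-spondin receptor Lgr6 2.47-fold and the co-receptor Ror2 2.22-fold lower. Ror1 was 1.64-fold lower. The ligands Wnt4 and Wnt7b were 2.29- and 1.61-fold lower, and Wnt6 was 1.98-fold higher. The feedback inhibitors Nkd1 and Nkd2 were 1.71- and 1.90-fold lower and the co-repressor Tle2 1.57-fold lower, while the cell cycle gene Ccnd1, listed among WNT targets, was 1.78-fold higher. Of 9 other secreted WNT inhibitors 3 were tested, and Igfbp4 fell 1.56-fold from 131 to 84.5 FPKM. In cKO cells 6 of 66 rose and 4 fell, against 3.75% and 2.87% over all models. The ligands Wnt6, Wnt10a and Wnt7b rose 5.12-, 1.86- and 1.75-fold and Porcn, which adds the lipid to WNT ligands, 1.92-fold, beside Lef1 (4.03-fold) and Ccnd1 (2.53-fold). Fzd9 and Fzd5 fell 29.3- and 3.73-fold, and Myc and the co-repressor Tle4 fell 2.02- and 1.77-fold. In second telogen iKO against WT cells 8 of 66 rose and 7 fell, against 7.01% and 5.88% over all models, again with Fzd9 (15.6-fold) and Fzd5 (2.50-fold) lower, beside Fzd7 (1.51-fold), Nkd1 (4.05-fold), Nkd2 (2.32-fold) and Wnt2b (2.85-fold). The ligands Wnt10a, Wnt2 and Wnt5a were 1.87-, 10.1- and 2.44-fold higher, and Rspo1, Fzd10, Tle2 and Tcf7l2 were 2.04-, 1.69-, 2.36- and 1.51-fold higher. Of the ligands, Wnt6 was 2.05-fold higher and Wnt4 1.46-fold lower too. Of the genes named here, Wnt2, Wnt5a, Rspo1, Wnt2b and Nkd2 were below 1 FPKM in WT cells. Wnt5a, Wnt2b and Nkd2 were below 1 FPKM in second telogen iKO cells too. Both telogen comparisons share the WT libraries. In second telogen iKO against cKO cells 10 of 65 were higher and 10 lower (7.53% and 7.35% over all models). In second telogen against anagen iKO cells 17 of 66 were higher and 11 lower (17.6% and 15.5% over all models), and in anagen Het against WT cells 16 of 65 and 12 (11.9% and 13.5%). The count of 11 of 66 lies near its background.

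Of these 80 pathway genes, 4 differed between the anagen and telogen knockout effects. How many of the 80 entered this test was not counted. Over all 12939 models compared, 0.386% had a higher and 0.271% a lower effect in telogen. By the same z on the authors' values, the log2 fold was higher in telogen for Wnt7b (difference 1.49, SE 0.40, adjusted p = 0.0331), Lgr6 (1.64, SE 0.43, adjusted p = 0.0275) and Lef1 (2.78, SE 0.72, adjusted p = 0.0227), and lower for Fzd5 (-2.06, SE 0.45, adjusted p = 0.00156).

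Of the other secreted inhibitors, Sostdc1 and Dkkl1 also differed in both stage comparisons, where calls were common. Over all models, 11.9% were called higher and 13.5% lower in anagen Het than in WT cells. In second telogen against anagen iKO cells these shares were 17.6% and 15.5%. Sostdc1, a secreted antagonist of WNT and BMP signalling, was 3.20-fold higher in anagen Het (792 FPKM) than in WT cells (247), and 3.60-fold lower in second telogen iKO (181) than in anagen iKO cells (652). Dkkl1, a Dickkopf-like gene, was 11.8-fold lower in anagen Het than in WT cells and 8.85-fold higher in second telogen iKO than in anagen iKO cells. Igfbp4 was 1.52-fold higher in anagen Het than in WT cells. Sostdc1 and Dkkl1 were also lower in second telogen iKO than in cKO cells, by 1.68- and 1.51-fold. In the Shh-Het libraries Sostdc1 had 340 FPKM in first telogen and 193 in anagen II, without a test. This order of Sostdc1 is the reverse of that in both stage comparisons. Dkkl1 had 6.71 and 1.86 and Igfbp4 163 and 399 FPKM in the same libraries. Genotype, strain, sex and age differ between the controls, and age between the iKO groups, which cannot be told apart from stage.

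The genes whose levels were most like a member's were ranked by Pearson's r of log2 (FPKM + 1) over the 7 group values, among 2216 models and as a description only. For Wif1 these were Endou (r = 0.96), the model Gm15987,Mir7649 (0.93) and the ligand gene Wnt7b (0.92), which had 26.1 FPKM in cKO and 7.05 in anagen iKO cells. For Sfrp1 they were Zfp365 (0.97), Arhgap22 (0.96) and Gclc (0.95), for Dkk3 Atg16l2 (0.99), Ddb2 (0.99) and C9 (0.99), and for Apcdd1 Snora15 (0.93), Ly6c1 (0.90) and Col1a2 (0.90). The 7 values share libraries' depth and scaling, and Col1a2, a fibroblast collagen, had 525 FPKM in first telogen and 8.09 to 27.2 in the groups of 2 libraries.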

How the data were processed

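mRNA libraries were made with the TruSeq kit from sorted cells, per the labels' protocols. TopHat, Cufflinks and Cuffdiff with build mm9 are named per the submitters' processing notes; the sources used here give neither versions nor settings. The authors deposited FPKM values, 1 per group. Their log2 fold per gene is a deposited ratio of both FPKM values. The test statistic is a score deposited by the authors. The p-value and q-value are those of the authors' deposited tables, with a smallest p of 5e-05. The joint table is scaled separately (median log2 shift -0.08 from the anagen and 0.06 from the telogen table) and its q-value is adjusted by the authors over all its comparisons together, since equal p-values there carry equal q-values across comparisons, so levels are compared within a table.

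From these, SE was computed as log2 fold over statistic. The difference of knockout effects is a two-sided z with Benjamini-Hochberg adjustment. It leaves out models whose statistic gave a normal p below 0.05 while the deposited p was at or above it. Its computation was run on simulated folds drawn with the same normal errors that the z assumes. Such a run cannot test whether the rebuilt SE or the normal approximation holds for these data. Computation used Python 3.11.15, pandas 2.3.3 and scipy 1.17.1. A symbol on several rows (160 symbols) kept the row of highest mean FPKM. Named genes are the 9 members, up to 4 called genes per WNT list by lowest p (all lists for the knockout against control comparisons, and the inhibitor list alone for the others), and the 3 models most like each member with a mean of at least 5 FPKM. Ror1 in anagen iKO cells and Wnt6 and Wnt4 in second telogen iKO cells are named beyond the 4 per list. The members and gene lists were chosen with earlier results of these data known. Of the marker lists, Krt85 and Flg were not found. The alternatives tried were a q below 0.01, a 2-fold minimum, a 1 FPKM minimum, the other table or adjustment, a larger SE and pseudocounts of 0.1 and 5.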

Additional observations from a re-analysis of the deposited data

Results flagged for a closer look

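Wif1 was singled out because its knockout effect differed between the telogen and anagen comparisons by a test of the difference itself. Its log2 fold was 3.77 higher in second telogen cKO against WT than in anagen iKO against Het cells. The adjusted p of this z test was 1.93e-13, and it ranged from 7.73e-15 in the joint table to 0.0160 with the larger SE. The comparisons also differ in driver, control, strain, ages and sexes, which cannot be told apart from stage.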

How the results depend on the processing

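No paired analysis was possible because the tables hold 1 pooled value per group, and for the same reason no library could be left out in turn. No member has a second row, so the choice of row could not be varied. At q below 0.01 the members called lower in anagen iKO cells went from 2 to 1, and with a 2-fold minimum to 0. In the joint table the members called higher in cKO against WT cells went from 1 to 2, through Sfrp2. The members called higher in second telogen iKO against cKO cells went from 2 to 1 at q below 0.01, with a 2-fold minimum, with a 1 FPKM minimum and with adjustment over this comparison alone, each time through Dkk3. The members called higher in second telogen than in anagen went from 3 to 2 with a 1 FPKM minimum among the iKO groups and the controls, through Dkk2, and in the controls also with a 2-fold minimum, through Dkk3. Apart from what the minimums leave out by construction, the cause was not tested. Of 155 single-gene alternatives 146 kept direction and call, 8 lost the call, 1 gained it and none changed sign. Only the joint table gives a new fold. The other alternatives reuse the same fold, so its sign could not change there. A stricter q or a 2-fold minimum also cannot add a call, so much of this count was fixed in advance. With a pseudocount of 5, the 3 models most like a member shared 1 with those named for Wif1, 1 for Sfrp1, 0 for Dkk3 and 2 for Apcdd1, so these names depend on it. Depth is unknown, which limits the members below 1 FPKM most.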
